A study of Mus musculus with 4 samples.

Results

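Streak-like cells of LSD1 KO embryoid bodies (EBs) were chosen by the UMIs of 7 genes. A cell was taken when it held at least 2000 UMIs and 1000 genes, showed at least 1 UMI in at least 3 of Mixl1, Mesp1, T, Evx1, Pcsk1 and Fst, and held fewer than 10 UMIs of Dppa5a, a gene of undifferentiated ESCs. A UMI, or unique molecular identifier, stands for 1 captured RNA molecule. By this rule 1491 of 7300 LSD1 KO cells were streak-like, out of 17298 cells past the same depth filter in the whole series. LSD1 KO replicate 1 gave 1277 of these cells and LSD1 KO replicate 2 gave 214, so that 85.6% came from a single library.

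EBs are aggregates that mouse ESCs form when they are left to differentiate without directing signals. Day 6 EBs were grown in hanging drops from V6.5 ESCs that were WT or LSD1 KO, with no drug or inducer in either group. In the LSD1 KO cells CRISPR/Cas9 had removed the Lsd1 promoter together with the first exon, and which clone each LSD1 KO library came from is not given in the sources used here. Each genotype had 2 biological replicates, each 1 droplet library in which the 3′ ends of transcripts were counted.

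The primitive streak is the site in the early embryo where epiblast cells leave the epithelium and become mesoderm and endoderm. T (Brachyury), Mixl1, Eomes and Mesp1 are transcription factors switched on there under Nodal, Wnt, BMP and FGF signals, and Gsc and Lhx1 mark its anterior end. Evx1 is a further streak factor, while Pcsk1 encodes a proprotein convertase and Fst encodes follistatin, a secreted antagonist of activin.

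The libraries held 72285943 to 75406512 UMIs each, and 2450 to 6338 cells per library passed the depth filter. LSD1 KO replicate 2 had the fewest cells and the highest median, 24642 UMIs per cell, against 12835 in LSD1 KO replicate 1. Kdm1a, which encodes LSD1, gave 72 and 52 UMIs in all LSD1 KO cells and 13536 and 15561 in WT cells, and the counted 3′ ends lie outside the deleted part. The streak-like cells held Kdm1a at 0.727 and 0.545 CPM, where CPM scales the UMIs of a gene to 1e6 UMIs of the summed cells. Pairs of libraries shared 2 to 12 cell barcodes, and the LSD1 KO libraries shared 3.

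Streak-like cells were frequent in both LSD1 KO libraries and rare in WT, but the LSD1 KO libraries differed widely from each other. They made up 26.3% of cells in LSD1 KO replicate 1 (1277 of 4850, exact 95% binomial interval 25.1 to 27.6%) and 8.73% in LSD1 KO replicate 2 (214 of 2450, 7.65 to 9.92%). In WT replicates 1 and 2 the same rule took 13 of 3660 cells (0.355%) and 16 of 6338 cells (0.252%). The intervals cover counting error only. These shares follow from the rule and are given as a description, without a test.

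Within each LSD1 KO library deeper cells passed the rule more often. Between these libraries the deeper, LSD1 KO replicate 2, had the lower share. Median UMIs were 15020 in streak-like and 11966 in other cells of LSD1 KO replicate 1, and 31364 and 24095 in LSD1 KO replicate 2. After each cell was thinned to 10000 UMIs, the share was 24.6% of 3240 cells in LSD1 KO replicate 1 and 4.35% of 2025 cells in LSD1 KO replicate 2, where the unthinned shares of the same cells were 31.9% and 10.0%. Thinning left out 1610 and 425 shallower cells, and gave 0.206% and 0.136% in the WT libraries. Thinning thus left the order of the LSD1 KO replicates as it was. Among cells with 20000 to 40000 UMIs, 291 of 775 were streak-like in LSD1 KO replicate 1 and 109 of 1164 in LSD1 KO replicate 2.

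The number of markers per cell fell off gradually and showed no gap at the threshold. In LSD1 KO replicate 1, 678 cells showed 3 of the 6 markers, 391 showed 4, 190 showed 5 and 41 showed all 6. LSD1 KO replicate 2 had 165, 40, 24 and 5 such cells. Just outside the rule lay 1210 and 409 cells with 2 markers. A further 23 and 20 cells showed 3 or more markers but held 10 or more Dppa5a UMIs, with median depths of 24300 and 55626 UMIs. WT cells with 3 markers numbered 10 and 16, and 3 cells in WT replicate 1 showed 4 or 5.

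**Figure D1:**
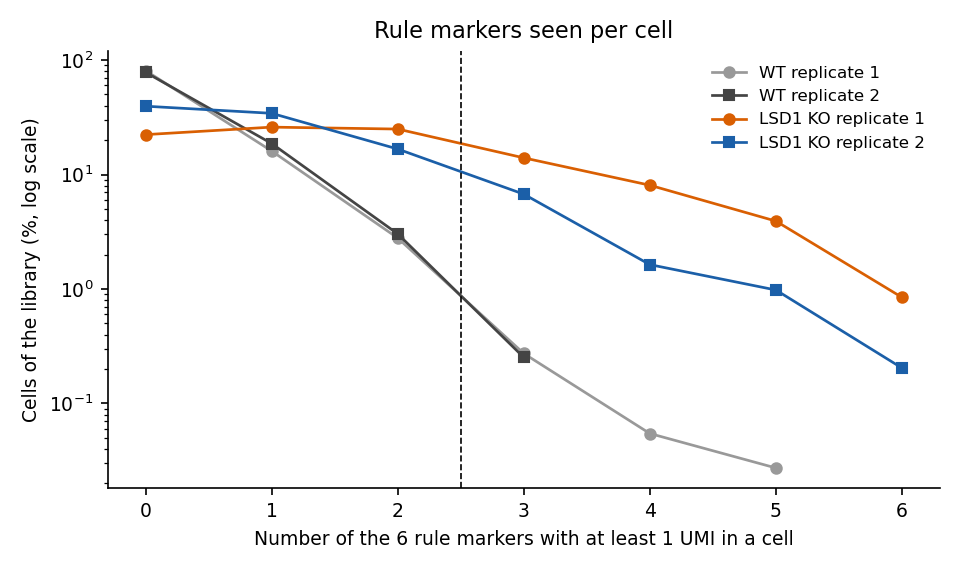
Percentage of cells of each library (y axis, log scale) by the number of the 6 rule markers with at least 1 UMI (x axis), in 2 WT and 2 LSD1 KO libraries. The dashed line marks the threshold of the rule, past which the WT lines fall to 0.273% and 0.252% at 3 markers while the LSD1 KO lines stand at 14% and 6.73%.

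The 6 markers differed in how common they were outside the streak-like cells. Mixl1, a homeobox factor of the streak (chr1:182623174-182627165, minus strand, mm9), was at 174 and 62.5 CPM in streak-like cells of LSD1 KO replicates 1 and 2 and at 4.36 and 1.31 CPM in other LSD1 KO cells. Mesp1, a basic helix-loop-helix factor of nascent mesoderm (chr7:86937127-86938674, minus strand), was at 79.8 and 24.0 CPM against 1.37 and 0.655 CPM. Evx1, a homeobox factor of the posterior streak (chr6:52263492-52268372, plus strand), was at 33.0 and 11.4 CPM against 1.19 and 0.291 CPM. A UMI of each of these 3 genes was seen in at most 3.44% of the other cells of either library.

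T and Fst were not. T (chr17:8627288-8635361, plus strand) was at 538 and 263 CPM in streak-like cells and at 147 and 23.0 CPM in the others, where 43.1% and 17.6% of cells held a T UMI. Fst (chr13:115242470-115249159, minus strand) was at 628 and 364 CPM against 159 and 56.9 CPM, and 51% and 44.2% of the other cells held a UMI of it. Pcsk1 (chr13:75227274-75269946, plus strand) lay between, at 46.2 and 37.2 CPM against 4.98 and 5.55 CPM. Free RNA also held these transcripts. Barcodes with at most 100 UMIs, which are mostly empty droplets, held T at 273 and 61.5 CPM and Fst at 212 and 59.4 CPM in LSD1 KO replicates 1 and 2. They also held Mixl1 at 36.1 and 6.43 CPM, Mesp1 at 24.1 and 3.98 CPM, Evx1 at 12.5 and 1.22 CPM and Pcsk1 at 15.4 and 6.43 CPM. Of the cells with 10 or more Dppa5a UMIs, 24.2% and 11.9% held a T UMI and 44.2% and 41.6% an Fst UMI. Which part of the marker UMIs in streak-like or other cells came from free RNA was not tested.

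Many streak-like cells showed no UMI of Mixl1 or Mesp1. At least 1 UMI of Mixl1 or Mesp1 was seen in 956 of 1277 streak-like cells of LSD1 KO replicate 1 (74.9%) and in 112 of 214 of LSD1 KO replicate 2 (52.3%), leaving 321 and 102 cells without either. The most frequent set of markers was Mixl1, T and Fst in LSD1 KO replicate 1, with 264 cells (20.7%), and T, Pcsk1 and Fst in LSD1 KO replicate 2, with 79 cells (36.9%). Mesp1 itself was seen in 30.2% of streak-like cells of LSD1 KO replicate 1 and in 14% of those of LSD1 KO replicate 2. Cells without either gene were not shallower, with medians of 15614 and 32732 UMIs against 14930 and 29936 in cells with one of them.

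Each marker was next measured in cells chosen by at least 3 of the other 5, so that its own level was not part of the choice. All 6 were higher in the chosen cells of both libraries. Mesp1 was 14.6-fold and 32.9-fold higher, Mixl1 8.76-fold and 19.5-fold, and Evx1 7.56-fold and 10.2-fold. The folds of T were 2.82 and 9.27, those of Fst 3.23 and 8.29, and those of Pcsk1 2.58 and 4.08. All 6 folds were larger in LSD1 KO replicate 2, where the levels in the other cells were lower. These folds have no test, since cells of a library are not replicates. The 6 markers were also picked with clusters of these data known. A rise of each marker with the others is therefore a description and not independent evidence.

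**Figure D2:**
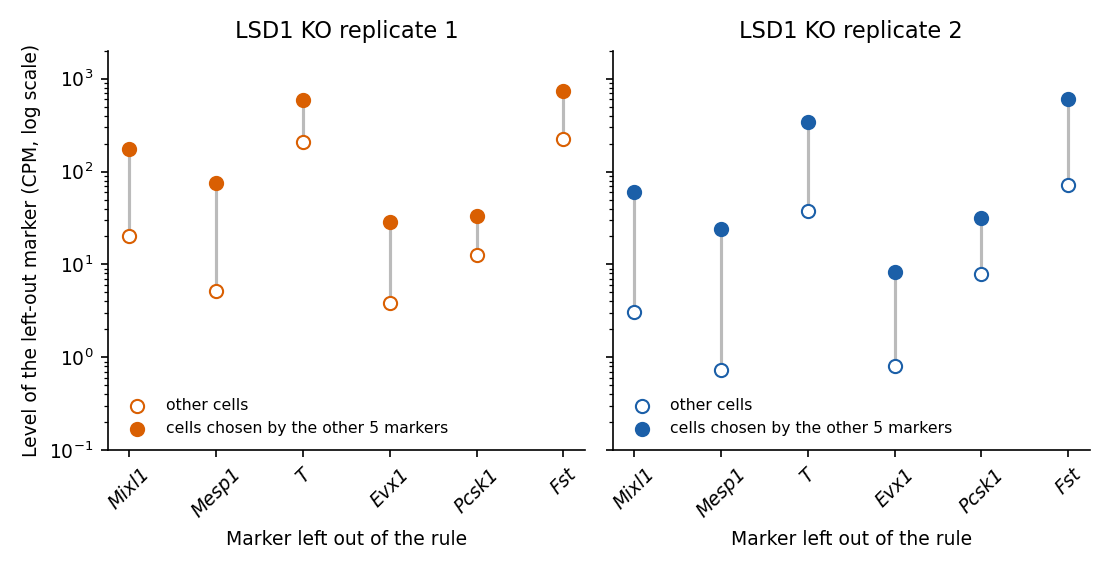
Level of each marker (CPM, log scale) in LSD1 KO cells chosen by at least 3 of the other 5 markers (filled points) and in all other LSD1 KO cells (open points), 1 panel per library. Filled points lie above open ones for each marker, by 2.58-fold to 14.6-fold in LSD1 KO replicate 1 and 4.08-fold to 32.9-fold in LSD1 KO replicate 2.

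Wnt signals act at the streak through TCF/LEF factors, whose best known site reads CTTTGAT. Because several streak genes moved together here, the 250 bases before the start sites of the rule markers and of 24 other streak factors were searched for this motif on both strands (ATCAAAG on the other), in RefSeq promoters of GRCm38.p6. Of these 30 genes 20 were matched, with 25 promoters, of which 3 held the motif (12%), against 1053 of 32851 promoters of all genes (3.21%). The 3 belong to Sp5, to the rule gene Mesp1 and to Msgn1, which had too few UMIs to test. The shares were not tested against each other, and 3 promoters are too few to compare them. A match describes letters and is not a measured binding site. The promoters of Sp5 and Mesp1 are shown with the match in capitals, its first base lying 104 and 31 bases before the start. They lie at chr2:70474673-70474922 on the plus strand and chr7:79793591-79793840 on the minus strand of GRCm38.p6.
Sp5: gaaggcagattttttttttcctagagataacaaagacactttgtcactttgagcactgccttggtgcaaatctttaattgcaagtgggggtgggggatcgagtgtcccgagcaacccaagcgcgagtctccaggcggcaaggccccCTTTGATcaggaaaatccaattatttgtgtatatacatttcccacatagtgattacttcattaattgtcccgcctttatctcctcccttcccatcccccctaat
Mesp1: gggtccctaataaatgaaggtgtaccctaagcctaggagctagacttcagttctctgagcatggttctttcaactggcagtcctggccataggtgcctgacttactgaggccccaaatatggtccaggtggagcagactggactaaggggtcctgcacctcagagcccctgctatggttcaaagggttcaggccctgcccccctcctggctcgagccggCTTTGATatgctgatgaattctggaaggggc

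Genes that the rule did not read were then tested between streak-like and other LSD1 KO cells. UMIs were summed per library and class, and the 4 sums were compared in edgeR (quasi-likelihood F) with the library as a block, which leaves 1 residual degree of freedom beside the spread shared over genes. Of 15711 genes tested, 1148 were higher in streak-like cells (7.31%) and 1293 lower (8.23%) at an adjusted p under 0.05, and the median log2 fold change of all genes was -0.01. The number of calls depends on the test. DESeq2's Wald test on the same sums called 765 genes, all of them also called by edgeR in the same direction, and edgeR without the library block called 1, with 2364 genes at an unadjusted p under 0.05. The test asks which genes go with the markers in both libraries. It does not make the cells a separate type, since the cells were picked from the same data.

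The 12 largest rises included the streak factors Lhx1, Gsc and Eomes. Lhx1, a LIM homeobox factor (chr11:84331479-84338923, minus strand), was at 195 and 67.0 CPM in streak-like cells of LSD1 KO replicates 1 and 2 and at 7.87 and 3.06 CPM in the other cells. Its folds of 24.8 and 21.9 gave a log2 fold change of 4.54 (SE 0.08, edgeR adjusted p = 5.20e-13). Gsc, a homeobox repressor of the anterior streak (chr12:105709419-105711537, minus strand), was at 67.3 and 40.3 CPM against 6.37 and 3.73 CPM, a log2 fold change of 3.39 (SE 0.09, adjusted p = 5.64e-11). Eomes, a T-box factor needed for endoderm and mesoderm, was at 193 and 108 CPM against 41.9 and 21.8 CPM (log2 fold change 2.23, SE 0.06, adjusted p = 4.14e-11). For these 3 genes both streak-like values exceeded both values of the other cells. Lhx1 was nevertheless seen in only 39.9% and 28.0% of streak-like cells, and Eomes in 71.1% and 66.4%.

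Over all 24 streak and nascent mesoderm factors outside the rule, 21 could be tested, of which 16 rose and 0 fell, with a median log2 fold change of 2.03 against -0.01 over all genes. DESeq2 called 10 of them. Gata6, a zinc finger factor of mesoderm and endoderm, rose from 3.06 and 1.37 CPM to 54.7 and 16.2 CPM (log2 fold change 3.94). Cdx2, a posterior homeobox factor, rose from 4.78 and 0.655 CPM to 28.2 and 11.3 CPM. Sp5, a zinc finger target of Wnt signals, was at 145 and 71.5 CPM against 42.1 and 7.21 CPM, and its fold differed between libraries, 3.44 and 9.92. Pdgfra, a receptor of mesoderm, rose from 2.51 and 1.57 CPM to 14.9 and 3.81 CPM, and Foxc1, a forkhead factor of mesoderm, from 7.54 and 6.72 CPM to 12.1 and 10.5 CPM. Tbx6 rose but stayed at 1.5 and 0.681 CPM and Mesp2 at 2.71 and 1.09 CPM, and DESeq2 did not call the rises of Foxc1, Tbx6 or Mesp2. Hand1 was at 3.88 and 1.09 CPM against 1.37 and 1.06 CPM (adjusted p = 0.0506 in edgeR's quasi-likelihood test), and Foxc2 and Msgn1 had too few UMIs to test.

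**Figure D3:**
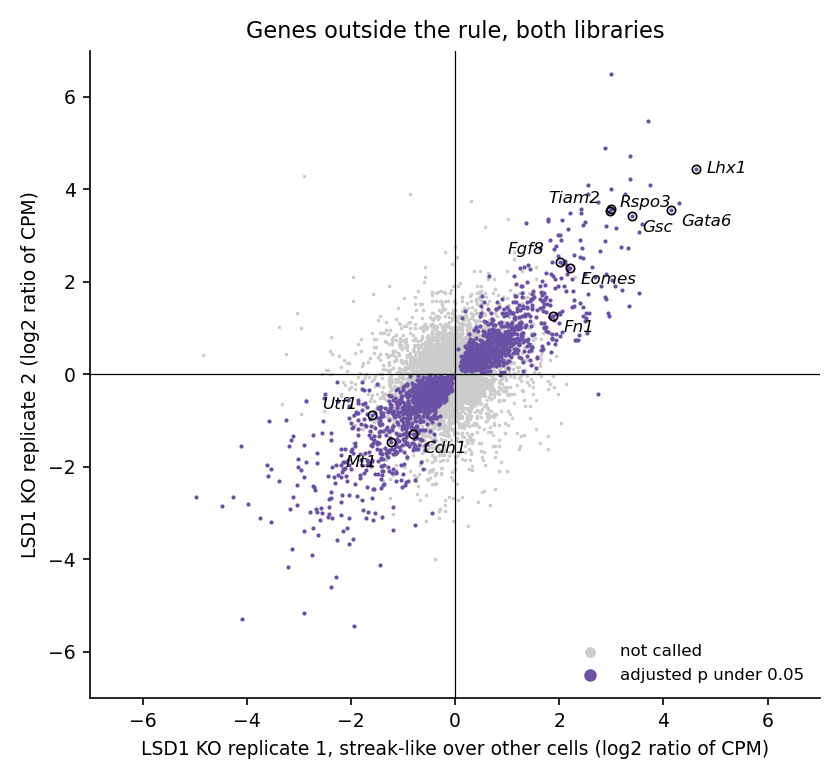
Log2 ratio of CPM in streak-like over other cells for the 15711 tested genes outside the rule, in LSD1 KO replicate 1 (x axis) and LSD1 KO replicate 2 (y axis), with 1 UMI added to each sum. Purple points passed edgeR's adjusted p threshold of 0.05, and named genes such as Lhx1 and Gsc stand at the upper right while Mt1 and Utf1 stand at the lower left.

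Genes of the Wnt pathway rose in part. Of 28 tested, 13 rose and 3 fell, with a median of 0.45. Rspo3, a secreted enhancer of Wnt signals, was at 183 and 77.1 CPM against 23.4 and 6.63 CPM (log2 fold change 3.16, SE 0.10, edgeR adjusted p = 3.72e-10). The ligands Wnt5a and Wnt3 rose as well, Wnt5a from 2.64 and 0.965 CPM to 19.7 and 7.08 CPM and Wnt3 from 33.3 and 15.0 CPM to 64.0 and 39.9 CPM. Axin2, a feedback inhibitor that Wnt signals induce, rose by 0.73 on the log2 scale and the antagonist Dkk1 by 1.43. Ctnnb1, which encodes beta-catenin, was at 245 and 260 CPM against 242 and 251 CPM, with no call (log2 fold change 0.01, edgeR adjusted p = 0.862). The antagonist Sfrp1 fell, from 45.8 and 78.0 CPM to 35.1 and 64.1 CPM. DESeq2 called 10 of the rises and none of the falls.

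Of 18 BMP pathway genes tested, 10 rose and 0 fell, with a median of 0.35, and DESeq2 called 6 of the rises. The ligand Bmp4 was at 34.9 and 13.5 CPM against 8.57 and 5.46 CPM (log2 fold change 1.74, SE 0.14, edgeR adjusted p = 2.60e-06). The targets Msx1, Id1 and Id3 rose by 2.5, 0.56 and 0.70 on the log2 scale. Bmp2 also rose, by 1.06, a call that DESeq2 did not make. The receptor Bmpr1a, at 126 and 120 CPM against 117 and 119 CPM, did not pass the test.

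Of 21 FGF genes tested, 8 rose and 2 fell. Fgf8, the ligand that drives cells out of the streak, rose from 79.8 and 44.8 CPM to 321 and 240 CPM (log2 fold change 2.18, SE 0.08, edgeR adjusted p = 6.25e-10), and 82.0% and 82.2% of streak-like cells held a UMI of it against 34.2% and 34.5% of the others. Fgf17 and Fgf5 rose by 1.70 and 0.66. Fgf4, a ligand of undifferentiated ESCs, fell from 6.28 and 11.2 CPM to 2.67 and 3.54 CPM, but not when cells with 10 or more Dppa5a UMIs were left out of the other side. The receptor Fgfr1 was at 156 and 138 CPM against 148 and 129 CPM, without a call. Of 13 Notch genes 4 rose and 0 fell, and DESeq2 called 1 of them.

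Of 19 Nodal pathway genes tested, 6 rose and 2 fell, with a median of 0.13. The co-receptor genes Tdgf1 (Cripto) and Cfc1 (Cryptic) rose, Tdgf1 from 377 and 369 CPM to 587 and 557 CPM and Cfc1 from 1.28 and 0.455 CPM to 9.60 and 4.22 CPM. Cer1, a secreted antagonist of the anterior endoderm, rose from 0.441 and 0.146 CPM to 3.05 and 2.04 CPM. A Cer1 UMI was seen in only 3.45% and 2.34% of streak-like cells. Nodal itself was at 58.4 and 53.5 CPM against 55.7 and 44.5 CPM, and did not pass the test (log2 fold change 0.13, SE 0.07, edgeR adjusted p = 0.239). The antagonist Lefty1 fell from 134 and 183 CPM to 102 and 173 CPM while Lefty2 rose from 43.9 and 54.8 CPM to 69.1 and 80.8 CPM, and the fall of Lefty1 was not called by DESeq2. Among 8 other proprotein convertases, relatives of the rule marker Pcsk1, Pcsk5 rose by 0.52 and Pcsk2 and Pcsk6 fell by 0.78 and 0.53 on the log2 scale, calls that DESeq2 did not make.

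The cadherins moved in opposite directions. Cdh1 (E-cadherin), which holds epithelial cells together, fell from 97.9 and 95.7 CPM to 56.1 and 38.9 CPM (log2 fold change -1.02, SE 0.09, edgeR adjusted p = 3.52e-06). Cdh2 (N-cadherin) rose from 173 and 134 CPM to 414 and 234 CPM (log2 fold change 1.02, SE 0.07, adjusted p = 8.18e-07). The LSD1 KO cells that the rule's Dppa5a limit keeps out of the streak-like class count among the other cells. They held Cdh1 at 179 and 181 CPM and Cdh2 at 70.3 and 58.1 CPM, in the same order of libraries. The sizes of both cadherin changes are therefore not independent of the rule. Fn1, which encodes the matrix protein fibronectin, rose from 135 and 80.8 CPM to 495 and 194 CPM. Snai1, a repressor of Cdh1, rose from 5.62 and 3.28 CPM to 31.7 and 7.22 CPM, a call that DESeq2 did not make. Yet the list of 19 transition genes as a whole had 7 rises, 2 falls and a median of -0.05. Epcam, an epithelial surface protein, stood at 264 and 263 CPM against 277 and 279 CPM and did not pass the test.

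Among 11 genes of definitive endoderm and axial mesendoderm, 6 rose and 0 fell. Beside Gsc, Gata6 and Cer1, these were Foxa2, at 10.2 and 5.72 CPM against 1.19 and 1.55 CPM, Sox17, at 3.54 and 3.0 CPM against 0.838 and 0.291 CPM, and Hhex. A Sox17 UMI was seen in only 2.82% and 1.87% of streak-like cells and a Foxa2 UMI in 10.2% and 12.6%. Gata6 was seen in 28.4% and 15.0% of them and Gsc in 38.8% and 36.0%. Noto and Shh, genes of the node and notochord, had 0 UMIs in streak-like cells of either LSD1 KO library. Shh gave 17 and 25 UMIs in the 13 and 16 WT cells that passed the same rule, and Noto gave 0 there too. Of 11 Hox genes 4, Hoxa3, Hoxb1, Hoxb2 and Hoxd1, rose and 0 fell, with a median of 0.39. DESeq2 called 1 of these rises. The summed level of the list was 47.5 and 20.0 CPM against 24.9 and 13.5 CPM.

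Pluripotency genes differed in how much they changed. Pou5f1, which encodes OCT4, was at 91.8 and 99.1 CPM in streak-like cells and 112 and 106 CPM in the others, a small fall (log2 fold change -0.22, SE 0.06, edgeR adjusted p = 0.0208) that was not called by DESeq2 nor when cells with 10 or more Dppa5a UMIs were left out of the other side. Nanog was at 57.1 and 74.5 CPM against 65.1 and 76.4 CPM and did not pass the test (adjusted p = 0.160 in edgeR's quasi-likelihood test). Of 11 general pluripotency genes 6 fell and 1, Tdgf1, rose. Sox2 fell from 29.1 and 54.7 CPM to 14.7 and 33.5 CPM, and Utf1, a chromatin factor of ESCs, from 119 and 184 CPM to 39.4 and 99.3 CPM. Among 15 genes of the formative and primed epiblast 5 rose and 7 fell. Fgf5 rose from 48.1 and 61.2 CPM to 82.2 and 91.2 CPM, whereas Pou3f1, which encodes OCT6, fell from 96.1 and 128 CPM to 50.5 and 90.6 CPM.

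Of 15 naive pluripotency genes 9 fell and 1, Tbx3, rose. The rule itself removed cells with 10 or more Dppa5a UMIs, of which 330 and 497 were counted among the other cells, so the naive genes are not independent of it. With those cells left out of the other side, 2 naive genes fell and 1 rose, and Dppa3, which fell by 2.10 on the log2 scale, turned to a log2 fold change of 0.48 (edgeR adjusted p = 0.394). In that setting 18 of the 24 listed streak factors rose and 0 fell. Of the 11 general pluripotency genes 4 fell and 1 rose. Over all 15483 genes tested there, 1017 rose and 1071 fell.

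Markers of other lineages moved in both directions or gave 1 call. Over all genes tested 7.31% rose and 8.23% fell, so 1 call in a list of 11 to 14 genes is near that share. Of 14 neuron genes 0 rose and 1 fell, and their summed level was 822 and 820 CPM in streak-like cells against 902 and 749 CPM in the others, and the values of both classes overlapped. Of 13 neural progenitor genes 6 fell, among them Sox1, Pax6 and Six3, and 1, Fabp7, rose. DESeq2 called 3 of these falls and the rise, and Six3 rested on 13 and 8 UMIs in streak-like cells. The summed level of 13 cardiac genes tested and 2 with too few UMIs was 108 and 95.9 CPM against 94.1 and 72.6 CPM, and Isl1, a factor of cardiac progenitors, rose while Myh6, a cardiac myosin gene, fell, a fall that DESeq2 did not call. Of 9 endothelium and blood genes 3, Pecam1, Tek and Cdh5, fell and 1, Lmo2, rose, and DESeq2 called 1 of the falls. Those 3 genes were at 0.776 CPM or less in streak-like cells. In cells with 10 or more Dppa5a UMIs Pecam1 was at 9.51 and 9.10 CPM and Tek at 6.69 and 5.59 CPM. Their falls are therefore not independent of the rule. With those cells left out of the other side 2 genes of the list fell. The haemoglobin genes Hba-x and Hbb-bh1 were at 0 UMIs. Visceral endoderm genes gave 1 rise and 1 fall among 6 tested, with Ttr and Apoa4 at 0, and parietal endoderm genes 1 and 1 among 8. Paraxial mesoderm genes gave 1 rise, Twist1, among 11. Of 9 germ cell genes 5 rose and 1, Dppa3, fell. The rises were Tfap2c, Dnd1, Kit, Ifitm1 and Ifitm3, of which DESeq2 called 2. Of 9 trophoblast and surface epithelium genes 3 rose and 2 fell. Cell division genes gave 4 rises among 17 with a median of 0.08, and LSD1 complex genes 1 fall, Phf21a, among 13. Of 16 stress response genes 7 fell and 3, Atf3, Egr1 and Fos, rose.

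**Figure D4:**
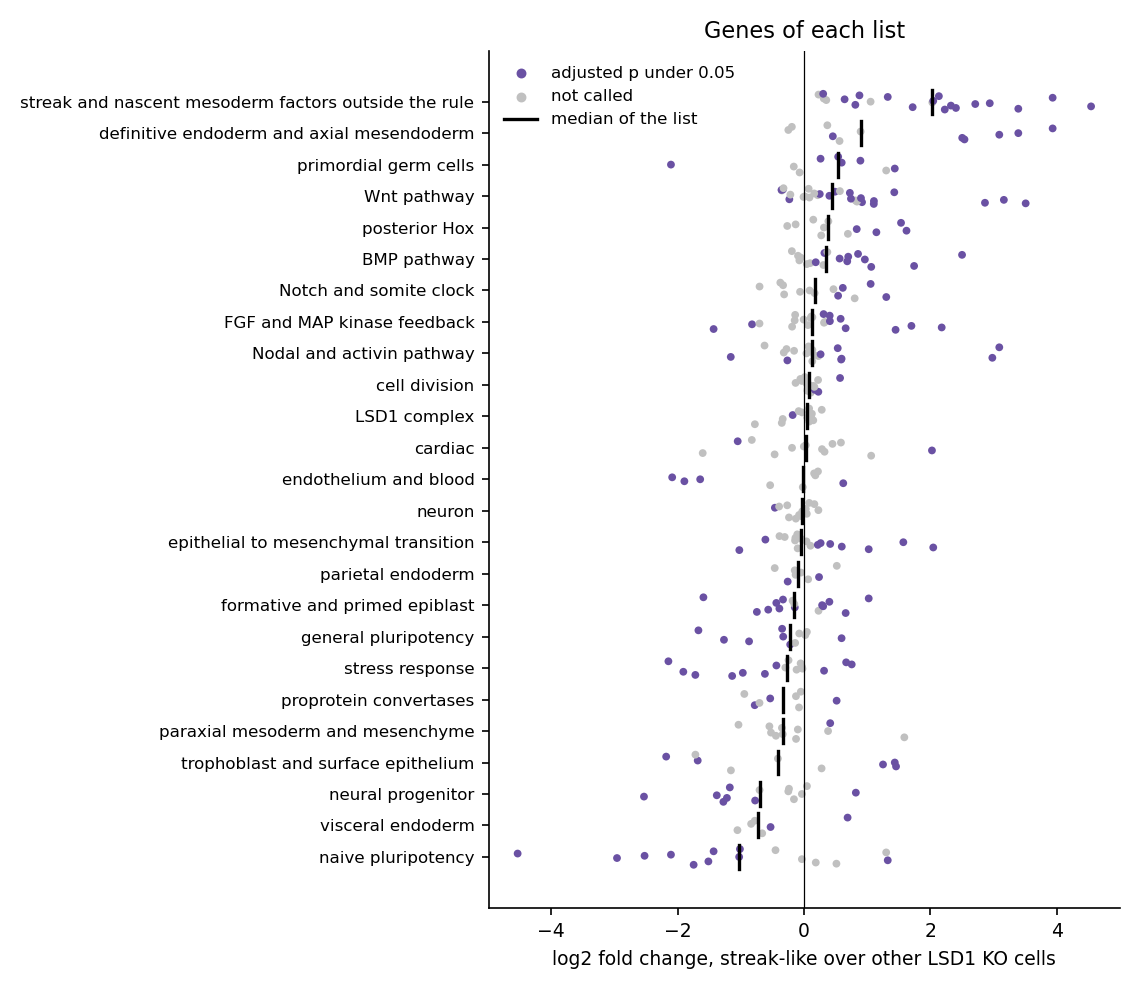
Log2 fold change of each tested gene (points) in streak-like over other LSD1 KO cells, by gene list, with purple points past edgeR's adjusted p threshold of 0.05 and black bars at the medians of the lists. The streak factor list has the highest median, 2.03, and the naive pluripotency list the lowest, -1.03.

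The rise was graded with the number of markers. Summed over the 24 streak factors outside the rule, the level in LSD1 KO replicate 1 was 333 CPM in cells with 2 markers, 598 with 3, 1200 with 4 and 1608 with 5 or 6. In LSD1 KO replicate 2 it was 255, 354, 745 and 1142 CPM. Lhx1 went from 12.5 to 83.3, 237 and 427 CPM over these classes of LSD1 KO replicate 1 and from 6.86 to 17.3, 111 and 278 CPM in LSD1 KO replicate 2. Over the same classes Utf1 went down, from 84.1 to 18.2 CPM and from 140 to 47.2 CPM, and Pou5f1 from 111 to 76.7 CPM and from 102 to 79.0 CPM. A higher number of markers is part of the rule, so these levels are a description without a test.

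**Figure D5:**
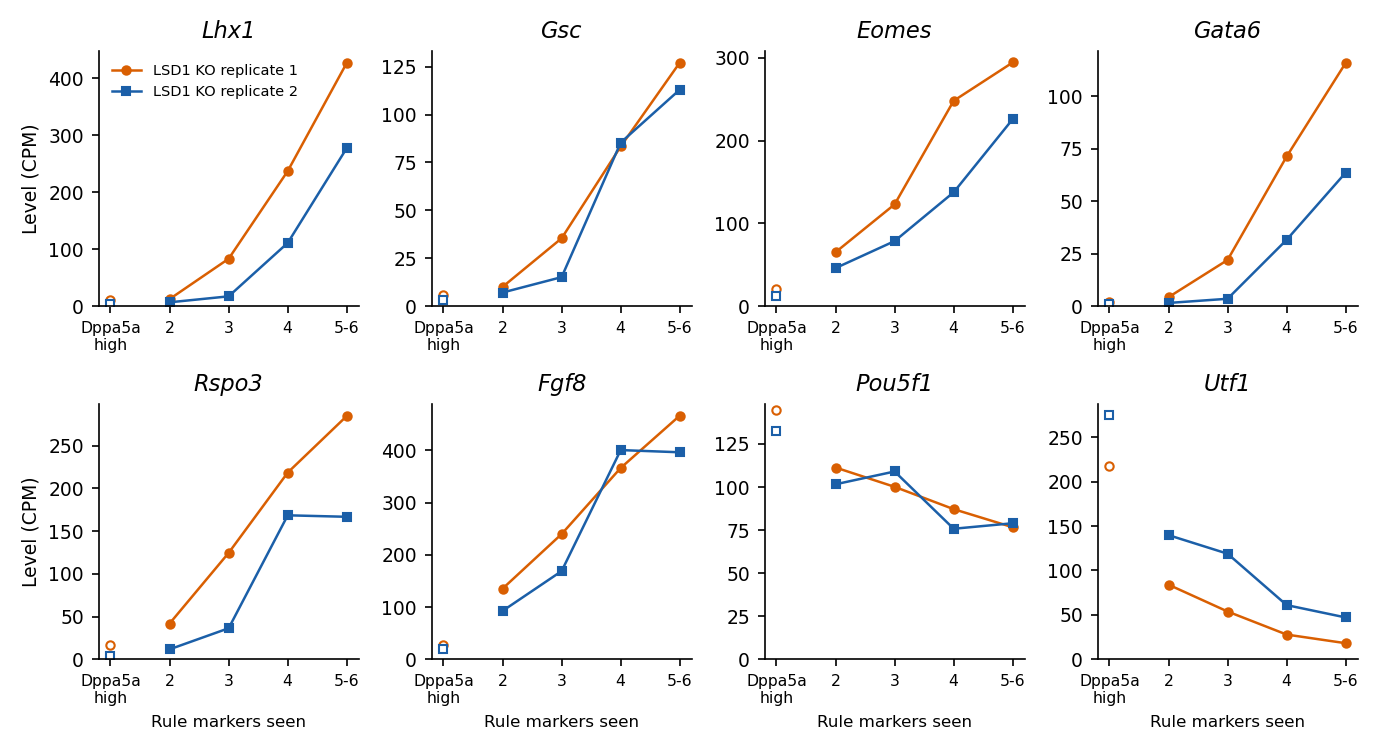
Level (CPM) of 8 genes outside the rule in LSD1 KO cells with 2, 3, 4 or 5 to 6 of the rule markers and fewer than 10 Dppa5a UMIs (filled points joined by lines), and in cells with 10 or more Dppa5a UMIs (open points), for both LSD1 KO libraries. Lhx1, Gsc, Eomes and Gata6 are higher at each step in both libraries, Rspo3 and Fgf8 level off at 4 markers in LSD1 KO replicate 2, and Pou5f1 and Utf1 are lower at 5 to 6 markers than at 2.

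The same split appeared by Mixl1 and Mesp1. In streak-like cells with a UMI of either gene the summed streak factors were at 1178 and 780 CPM in LSD1 KO replicates 1 and 2, and in streak-like cells with neither they were at 377 and 276 CPM. The other LSD1 KO cells had 263 and 219 CPM. Lhx1 was at 255 and 131 CPM in the former and at 24.2 and 5.37 CPM in the latter, and Gata6 at 72.3 and 32.1 CPM against 4.31 and 0.805 CPM. Cdx2 did not follow this split in LSD1 KO replicate 1, at 28.9 and 26.2 CPM, and Bmp4 was at 33.9 and 37.5 CPM there. By the summed streak factors, the streak-like cells with no UMI of Mixl1 or Mesp1 match the streak label less well than the rest. They made up 25.1% of streak-like cells in LSD1 KO replicate 1 and 47.7% in LSD1 KO replicate 2. Both genes are part of the rule, and cells without them have fewer markers left to show. The split is therefore not separate from the number of markers, and no test was run on it. With Mixl1 or Mesp1 required, 2149 genes were called in place of 2441, 1822 of them shared.

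Within the Mixl1 and Mesp1 class, cells with Mesp1 differed from those with Mixl1 alone. Lhx1 was at 478 and 267 CPM in cells with a Mesp1 UMI and at 97.9 and 77.5 CPM in cells with Mixl1 but no Mesp1 UMI. Gata6 followed the same order, at 120 and 62.3 CPM against 39.1 and 20.3 CPM, as did Fn1, at 831 and 385 CPM against 412 and 215 CPM. Nanog ran the other way, at 40.4 and 40.6 CPM against 63.7 and 74.4 CPM. The Mesp1 cells numbered 386 and 30, and no test was run between these classes. Mesp1 is itself a rule marker, so this split too is not separate from the number of markers. In LSD1 KO replicate 1, 264 of the cells with Mixl1 but no Mesp1 showed only Mixl1, T and Fst.

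Streak-like cells were also set against the LSD1 KO cells with 10 or more Dppa5a UMIs, a second class that the rule defines. Of 14254 genes tested with the same edgeR fit, 2932 were higher in streak-like cells (20.6%) and 3015 lower (21.2%). Of 18 streak factors tested 14 rose and 1 fell, with a median log2 fold change of 2.08. Of 14 naive genes 11 fell, with a median of -2.83, and Dppa2 and Klf2 were at 3.78 and 4.41 CPM in streak-like cells of LSD1 KO replicate 1 against 80.3 and 61.1 CPM in the Dppa5a class. Of 11 general pluripotency genes 8 fell. Pou5f1, at 91.8 and 99.1 CPM against 145 and 133 CPM, fell by 0.69 on the log2 scale. Both classes were chosen by their Dppa5a UMIs, so these falls of naive and general pluripotency genes are not independent of the rule.

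WT cells that passed the same rule numbered 13 and 16, under the planned minimum of 30 per library, so no test was run and their values are given beside those of the LSD1 KO cells. They held 46 and 63 Kdm1a UMIs, at 171 and 228 CPM. Mesp1 was at 115 and 218 CPM in WT and 79.8 and 24.0 CPM in LSD1 KO streak-like cells, while Mixl1 was at 18.6 and 29.0 CPM in WT and 174 and 62.5 CPM in LSD1 KO. Fst was at 104 and 87.0 CPM in WT against 628 and 364 CPM. Lhx1, at 123 and 138 CPM in WT, lay within the LSD1 KO range of 67.0 to 195 CPM. Pou5f1 was at 7.43 and 14.5 CPM in WT, from 2 and 4 UMIs, against 91.8 and 99.1 CPM in LSD1 KO. Tdgf1 was at 111 and 141 CPM in WT, from 30 and 39 UMIs, against 587 and 557 CPM. The rule itself reads Mesp1, Mixl1 and Fst, and Pou5f1 and Tdgf1 were singled out after their values were seen, so these values are a description. Pou5f1 was also higher in LSD1 KO cells outside the rule, at 112 and 106 CPM against 4.43 and 11.6 CPM in other WT cells, so a difference in the same direction was present outside the rule as well.

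Genes with the largest changes outside these lists included Tiam2, an exchange factor for the GTPase RAC, which rose from 10.3 and 2.98 CPM to 81.8 and 35.8 CPM (log2 fold change 3.17, SE 0.12, edgeR adjusted p = 9.52e-10). The cell adhesion genes Pcdh7 and Lsamp rose by 2.20 and 1.99, the actin-associated Limch1 by 2.43, the raft protein gene Rftn1 by 1.87 and Upp1, a uridine phosphorylase, by 2.17. Among the falls were the metallothionein genes Mt1 and Mt2, the zinc finger gene Zfp982 (log2 fold change -1.09), Mkrn1 (-1.02), Jade1 (-1.0), Chd9 (-0.94), 1700019D03Rik (-0.92), Ptn (-0.92), Col18a1 (-0.88) and the amino acid transporter Slc7a3 (-0.86). Mt1 fell from 961 and 1073 CPM to 410 and 389 CPM (log2 fold change -1.36, SE 0.05, adjusted p = 4.09e-10), and was the 1 gene still called without the library block. Mt1 was highest in the cells with 10 or more Dppa5a UMIs, at 2623 and 2352 CPM. Mt2 was at 1207 and 1022 CPM there and Mkrn1 at 874 and 861 CPM. Ptn, at 14.1 and 23.3 CPM, and 1700019D03Rik, at 54.1 and 56.0 CPM, were not above the other cells there. The rule leaves these Dppa5a cells among the other cells, so the sizes of falls such as that of Mt1 are not independent of it.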

How the data were processed

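Day 6 EBs of 2 WT and 2 LSD1 KO replicates were profiled as 4 droplet 3′ libraries. The authors used Cell Ranger 7.1.0 for alignment and counting, and the submitters' processing notes name mm9 and Seurat 4.3.0. What they deposited are unfiltered UMI counts for every barcode, without normalization. The members and the gene lists were chosen with earlier results of these data known. Doublets were not called, and the matrices hold no mitochondrial genes.

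Of 25209 genes, 18419 were seen in at least 10 cells. UMIs were summed per library over streak-like and over other LSD1 KO cells, filtered with filterByExpr, scaled with TMM factors and tested with edgeR 4.0.16 in R 4.3.3 (quasi-likelihood, library block, Benjamini-Hochberg over all tested genes outside the 7 rule genes). The block stands because both sums of a library come from the same cells' capture. Standard errors are the log2 fold change over the root of F. CPM values use plain UMI totals. On simulated counts for this comparison, with 15546 genes, the fit called 83 of 99 genes given a fold of 2, 96 of 100 given a fold of 4, and 16 of 15347 left unchanged. These counts were drawn with the spread that this fit estimated and with the same fold in both libraries. They therefore cannot show how often calls on the real sums are wrong. DESeq2 1.42.0 was an alternative. P-values measure only the spread between 2 libraries. The planned comparison with WT cells was not fitted, since the WT libraries gave 13 and 16 cells against a minimum of 30.

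Named genes were the 12 largest rises and the 12 largest falls called in the first comparison, moving the same way in both libraries and reaching 50 CPM or more in the higher class, and up to 5 genes per list. Other list members are named to say which moved and were chosen after their values were seen. Positions of genes are those of the GENCODE M1 annotation (NCBIM37, which is mm9), and promoters are those of RefSeq on GRCm38.p6. Alternatives changed the scaling, the gene filter, the test, the block, the depth filter, the rule's thresholds and the other cells. Values of 1 gene are not reported here.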

Additional observations from a re-analysis of the deposited data

How the results depend on the processing

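The library block is the setting on which the gene calls rest most: without the block 1 gene was called in place of 2441, and of 110 named genes 108 lost the call while keeping their direction. DESeq2's Wald test called 765 genes and left the result of 65 of the 110 as it was, among them Kdm1a, which neither test called. With Fst and T left out of the rule and 2 of the other 4 markers required, an alternative chosen after seeing the data, 1554 genes were called. Other settings of the scaling, the gene filter, the depth filter and the rule gave 1902 to 3137. With library totals in place of TMM factors 53.8% of calls were rises, against 47.0%. Against cells with 10 or more Dppa5a UMIs, 5947 genes were called, 2288 by DESeq2 and 4404 without the block. Dppa3 reversed, to a log2 fold change of 0.48, when the cells with 10 or more Dppa5a UMIs were left out of the other cells. No alternative was run for the comparison with WT cells, which was not fitted. With a single library left out no residual degrees of freedom remain, so the log2 ratio of each library alone was taken as a value without a test, and all 110 named genes kept their sign. The ratio moved by more than the spread between libraries for 29 of them with LSD1 KO replicate 2 alone and for 15 with LSD1 KO replicate 1 alone.

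Shares follow the thresholds. With at least 2 markers they were 50.3% and 23.3% in LSD1 KO replicates 1 and 2 and 3.14% and 3.27% in WT replicates 1 and 2. With at least 4 they were 12.7%, 2.69%, 0.0820% and 0%, where 0 cells seen allow a share of up to 0.0473% in WT replicate 2 if 3 cells of the total set the limit, and 0.0582% by the exact 95% binomial interval. With cells of at least 500 UMIs and 500 genes the LSD1 KO shares were 22.5% and 7.03%, with Mixl1 or Mesp1 required 19.7% and 4.57%, with Fst and T left out 13.9% and 3.55% (0.574% and 0.458% in WT replicates 1 and 2), and after thinning to 10000 UMIs 24.6% and 4.35% (0.206% and 0.136% in WT). Genes under about 1 CPM, such as Tbx6 and Foxc2, rest on few UMIs, and 2 libraries, 1 with 214 streak-like cells, limit each statement on LSD1 KO.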

Other observations

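Several genes that interferon is known to induce, picked after their values were seen and not tested as a group, had higher levels in streak-like cells, and others did not pass the test. Psmb8, a subunit of the immunoproteasome, was at 119 and 88.9 CPM in streak-like cells of LSD1 KO replicates 1 and 2 and at 42.8 and 28.9 CPM in the other cells (log2 fold change 1.52, SE 0.06). Its partners Psmb9 and Psmb10 were higher by 1.05 and 0.84 on the log2 scale, and the proteasome activator genes Psme1 and Psme2 by 0.53 and 0.74. The GTPase genes Gbp2 and Gbp3, the transcription factor Irf1, the peptide transporter Tap2 and its partner Tapbp were higher by 1.34, 1.41, 1.05, 1.09 and 0.99. Tap1, B2m and Nlrc5 did not pass edgeR's adjusted p threshold, with log2 fold changes of 0.32, 0.12 and -0.17. Psmb8 differed little between streak-like cells with and without Mixl1 or Mesp1, at 115 against 128 CPM in LSD1 KO replicate 1 and 89.9 against 88.0 CPM in LSD1 KO replicate 2, unlike Lhx1 and Gata6. WT cells that passed the rule held Psmb8 at 78.0 and 29.0 CPM, from only 21 and 8 UMIs in 13 and 16 cells. Other WT cells held it at 2.69 and 4.02 CPM.

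The metallothionein gene Mt3 fell with Mt1 and Mt2, from 44.7 and 63.7 CPM to 33.2 and 32.8 CPM, while their activator Mtf1, at 24.3 and 21.1 CPM against 21.6 and 18.7 CPM, and the zinc exporter gene Slc30a1, at 9.99 and 8.99 CPM against 10.4 and 9.92 CPM, did not pass the test. Hmox1, a haem oxygenase gene, fell by 0.65 on the log2 scale. These genes were chosen after their values were seen.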
